A study of Homo sapiens with 12 samples.

Results

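The protein disulfide isomerase (PDI) family, with TXNDC5, its readthrough transcript and the proteins that oxidize or retain the family, was examined by RNA-Seq in 201B7, an established human iPSC line. The 10 genes, of 60617 in the TPM table, were chosen by name: TXNDC5, BLOC1S5-TXNDC5, P4HB, PDIA3, PDIA4, PDIA5, PDIA6, TMX1, ERP44 and ERO1A. TXNDC5 had been selected on its difference between Cond 4 and Cond 1 in these same libraries, so that difference is described here and not tested. Cond 1 was the control, in which cells were kept in StemFit for general maintenance. In Cond 2 the cells received StemFit that had been heated at 56 °C for 30 min, named low nutrient. In Cond 3 they received a differentiation medium of DMEM with FBS at 10% and both MEM NEAA and GlutaMax at 1%. In Cond 4 the cells were pipetted 20 times at passage as a physical stimulus and carried no change of medium. All cells came from 1 line and were harvested on Day 5, with 3 libraries per condition and 12 in all. The study's text puts the start of the heated medium earlier than that of the FBS medium. Cond 2 and Cond 3 thus also differed in time of exposure, which cannot be told apart from the medium. The study's results call the replicates technical, whereas its methods describe the whole arrangement as run in triplicate. P-values therefore measure the spread between these libraries, which held 16441148 to 21871503 counts each.

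PDIs are enzymes of the endoplasmic reticulum (ER) that form, break and rearrange the disulfide bonds of proteins entering the secretory pathway. ERO1A passes oxidizing power to the family, and ERP44 binds client proteins by a mixed disulfide in the early secretory pathway and brings them back to the ER. Secretory cells express many of these genes at a high level, and several of them are induced when unfolded proteins accumulate in the ER. TXNDC5, also known as ERp46, is a family member with several thioredoxin-like domains.

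TXNDC5 lies on the minus strand of chromosome 6 (GRCh38, chr6:7881517-7910788), and the readthrough gene BLOC1S5-TXNDC5 spans chr6:7881522-8064364 on the same strand. The readthrough joins exons of BLOC1S5, which encodes a subunit of a complex of lysosome-related organelles, to the exons of TXNDC5 after its first one. In the GENCODE release 44 annotation, 2658 of the 4361 exon bases of TXNDC5 (60.95%) also belonged to BLOC1S5-TXNDC5. Of the 3030 exon bases of the readthrough, 0 were its own, as each was also annotated to TXNDC5, BLOC1S5 or EEF1E1-BLOC1S5. TXNDC5 had 1703 bases that it shared with no other gene on its strand. They fell in 5 stretches of 5, 597, 561, 265 and 275 bases. The last of these was the first exon of a coding transcript, with 263 coding bases and a GC content of 77.5%. The stretches of 597, 561 and 265 bases held 0 coding bases, and those of 597 and 561 ended directly before a shared exon. Every 31-base word of these stretches occurred once in the chromosomes of the reference genome (567, 531, 235 and 245 words). The sequences below, read from the reference genome on the minus strand, show which bases can tell the 2 genes apart. Capitals mark bases of TXNDC5 alone, and lower case marks exon bases it shares with the readthrough.
TXNDC5, chr6:7910514-7910776, coding part of the first exon: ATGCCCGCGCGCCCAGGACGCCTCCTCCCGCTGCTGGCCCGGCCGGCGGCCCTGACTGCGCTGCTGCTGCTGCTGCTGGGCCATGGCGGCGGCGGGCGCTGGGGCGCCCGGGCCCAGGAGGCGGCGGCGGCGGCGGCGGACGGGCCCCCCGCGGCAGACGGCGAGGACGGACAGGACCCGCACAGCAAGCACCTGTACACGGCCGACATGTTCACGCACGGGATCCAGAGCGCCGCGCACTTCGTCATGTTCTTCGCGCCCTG
TXNDC5, chr6:7888809-7888888, edge of the stretch of 597 bases: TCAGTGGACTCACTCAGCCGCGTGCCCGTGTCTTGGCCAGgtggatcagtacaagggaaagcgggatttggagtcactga
TXNDC5, chr6:7899642-7899721, edge of the stretch of 561 bases: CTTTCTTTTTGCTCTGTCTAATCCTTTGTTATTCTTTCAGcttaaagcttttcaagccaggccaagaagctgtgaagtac

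In both tables all counted signal of TXNDC5 and its readthrough stood on the TXNDC5 row. TXNDC5 had 87, 42 and 85 reads in the 3 libraries of Cond 1. It had 63, 49 and 153 reads in Cond 2. Cond 3 gave 168, 96 and 103 reads, and Cond 4 gave 307, 386 and 256 reads. BLOC1S5-TXNDC5 had 0 reads in each of the 12 libraries, so the sum of both rows equalled the TXNDC5 row in every library, and TXNDC5 held 100% of it. How reads on exons of more than 1 gene were assigned is not given in the sources used here. The count of 0 means that no read on the 2658 bases shared with TXNDC5 was counted for the readthrough. Whether such reads were counted for TXNDC5 is not known. As no exon base is the readthrough's own, its row does not measure whether the readthrough transcript was present, and no limit on its level was taken from the count of 0.

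As deposited, per the full length of 4387 bases, TXNDC5 was the lowest of the 9 members with reads in every condition. If only reads on its 1703 own bases had been counted, the level per own length would be 7.67 ± 2.15, 10.3 ± 7.29 and 12.6 ± 3.08 TPM in Cond 1 to Cond 3, still lowest, and 36.7 ± 8.27 TPM in Cond 4 (SD, n = 3), where it would overlap ERO1A and PDIA5. The stretch of 275 own bases holds 263 coding bases, and those of 597, 561 and 265 hold 0. These stretches belong to different transcripts, so neither scale gives the level of a single transcript. The values that follow are those deposited. Its level was 3.6, 2.03 and 3.31 TPM (transcripts per 1000000) in Cond 1. In Cond 2 it was 2.84, 1.96 and 7.24 TPM, with replicate 3 above every library of Cond 1 and the others within or below their range. In Cond 3 it was 6.25, 4.00 and 4.42 TPM, which lay above all libraries of Cond 1. In Cond 4 it was 14.8, 17.1 and 10.8 TPM, above all 9 other libraries. The means were 2.98 ± 0.836, 4.01 ± 2.83, 4.89 ± 1.20 and 14.2 ± 3.21 TPM (SD, n = 3) from Cond 1 to Cond 4. For Cond 4 and Cond 1 the fitted log2 fold change was 2.23 with an SE of 0.316, or 4.69-fold, a value on which the gene was chosen. Counting error alone was 15.4% of the count for the 42 reads of Cond 1 replicate 2 and 5.09% for the 386 reads of Cond 4 replicate 2. The coefficient of variation of TXNDC5 was 70.5% in Cond 2 and between 22.6% and 28.1% in the other conditions.

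**Figure D1:**
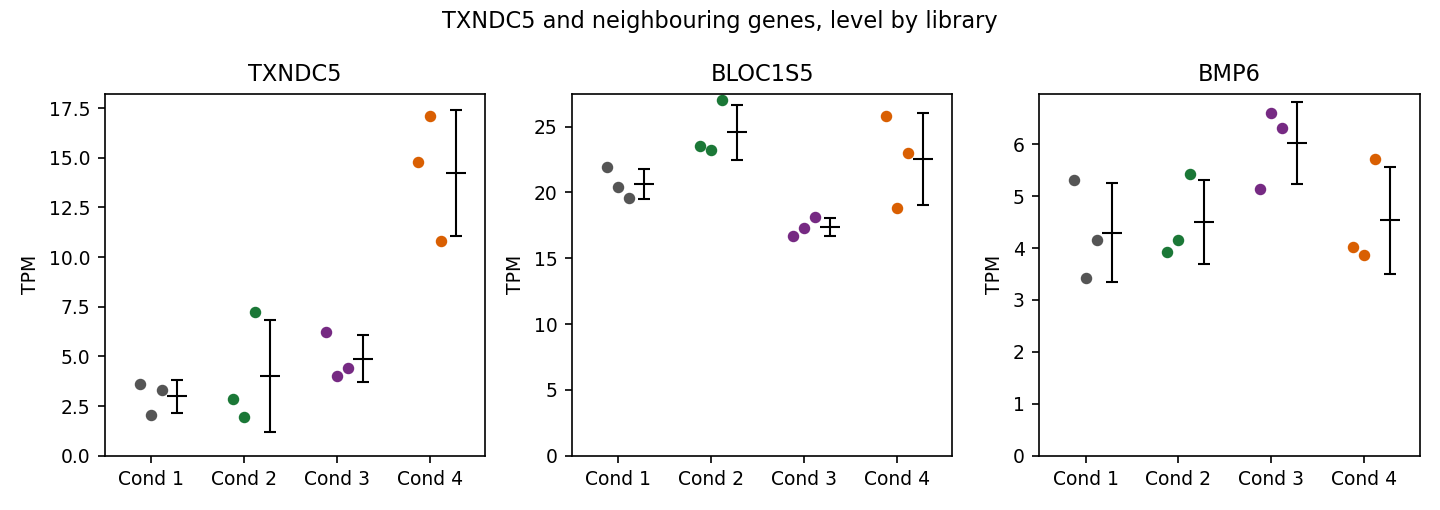
TPM of TXNDC5, BLOC1S5 and BMP6 in the 4 conditions. Each point is a library, and the bar to the right of the points is the mean with its SD (n = 3). TXNDC5 sits between 10.8 and 17.1 TPM in Cond 4 and at or below 7.24 TPM elsewhere, while the Cond 4 libraries of BLOC1S5 and BMP6 overlap those of Cond 1.

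The comparisons of TXNDC5 in Cond 2 and Cond 3 against Cond 1 use the same control libraries as the difference it was chosen on. Its log2 fold change was 0.31 (SE 0.336) in Cond 2, with an adjusted p of 0.578 in edgeR's quasi-likelihood test, adjusted by the Benjamini-Hochberg method over all 17747 genes tested. Without Cond 2 replicate 3 it was -0.41, with an adjusted p of 0.37 in edgeR, so the direction in Cond 2 rested on 1 library. In Cond 3 the log2 fold change was 0.68 (SE 0.327), with an adjusted p of 0.108 in edgeR, although the libraries did not overlap. The same comparison passed the threshold of 0.05 in edgeR fitted on its 6 libraries alone (adjusted p = 0.0274) and without a filter on low counts (adjusted p = 0.00599), and its adjusted p was 0.26 in DESeq2. Cond 3 against Cond 2 compares neither Cond 1 nor Cond 4, although the spread in the fit over 12 libraries was estimated with both. There the log2 fold change was 0.37 (SE 0.32, adjusted p = 0.4 in edgeR), on its 6 libraries alone it was 0.36 (adjusted p = 0.455 in edgeR), and without Cond 2 replicate 3 it was 1.09 (adjusted p = 0.00312 in edgeR).

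Other genes of the locus did not share the Cond 4 values of TXNDC5. BLOC1S5 had 25.8, 18.8 and 23.0 TPM in Cond 4 and 21.9, 20.4 and 19.6 TPM in Cond 1, and these overlapped (log2 fold change 0.11, adjusted p = 0.926 in edgeR). It was lower in Cond 3, at 16.7 to 18.1 TPM, than in Cond 2, at 23.2 to 27.0 TPM, with a fitted log2 difference of -0.44 (SE 0.115, adjusted p = 0.00403 in edgeR). BMP6, a secreted growth factor gene on the opposite strand that overlaps 212 exon bases of TXNDC5, had 4.53 ± 1.03 TPM in Cond 4 and 4.30 ± 0.963 TPM in Cond 1 (SD, n = 3). Its log2 fold change there was 0.063 (adjusted p = 0.985 in edgeR). EEF1E1, a neighbour that encodes a component of the aminoacyl-tRNA synthetase complex, had 42.8 ± 3.11 TPM in Cond 4 and 40.4 ± 3.39 TPM in Cond 1 (SD, n = 3).

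The genes with profiles most like that of TXNDC5 were found from the root mean square distance of log2 CPM (counts per 1000000 counts) over the 12 libraries, each gene centred on its Cond 1 mean. The profile of the summed rows is the same, so it has the same neighbours. PCBP1, which encodes an RNA-binding protein, was nearest at 0.64, where a flat profile lay at 1.26 and the median gene at 1.30. PCBP1 had 630, 466 and 645 reads in Cond 1 and 1165, 1419 and 1332 in Cond 4. Against Cond 1 its log2 values were 0.11 (Cond 2), 0.43 (Cond 3) and 1.24 (Cond 4). The next were the pseudogene NACA4P at 0.68, AL731577.2 at 0.73, AC103691.1 at 0.75 and AL132656.2 at 0.76, and these had at most 44 reads in any library. The likeness was measured on values that include those TXNDC5 was chosen on and is given as a description.

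The remaining members fell into separate tiers of level, which held in all conditions. The upper tier was the soluble enzymes PDIA3, PDIA4, PDIA6 and P4HB. In Cond 1 these had 423 ± 29.5, 411 ± 22, 293 ± 11.9 and 253 ± 11.3 TPM (SD, n = 3). PDIA3 and PDIA4 overlapped in Cond 1 and were not ordered beyond their spread, whereas PDIA6, at 285 to 306 TPM, lay above P4HB, at 242 to 264 TPM. TMX1, the membrane-bound member, followed at 139 ± 2.19 TPM (SD, n = 3). The lower tier was ERP44 at 48.2 ± 4.09, PDIA5 at 34.6 ± 0.208 and ERO1A at 32.6 ± 2.50 TPM (SD, n = 3), of which PDIA5 and ERO1A overlapped. The members together held 1636 ± 79.5 TPM in Cond 1, 1657 ± 114 in Cond 2, 1707 ± 54.0 in Cond 3 and 1616 ± 12.5 in Cond 4 (SD, n = 3), and each range overlapped that of Cond 1. As deposited, per its full length, TXNDC5 was 0.182% of this total in Cond 1 and 0.881% in Cond 4.

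**Figure D2:**
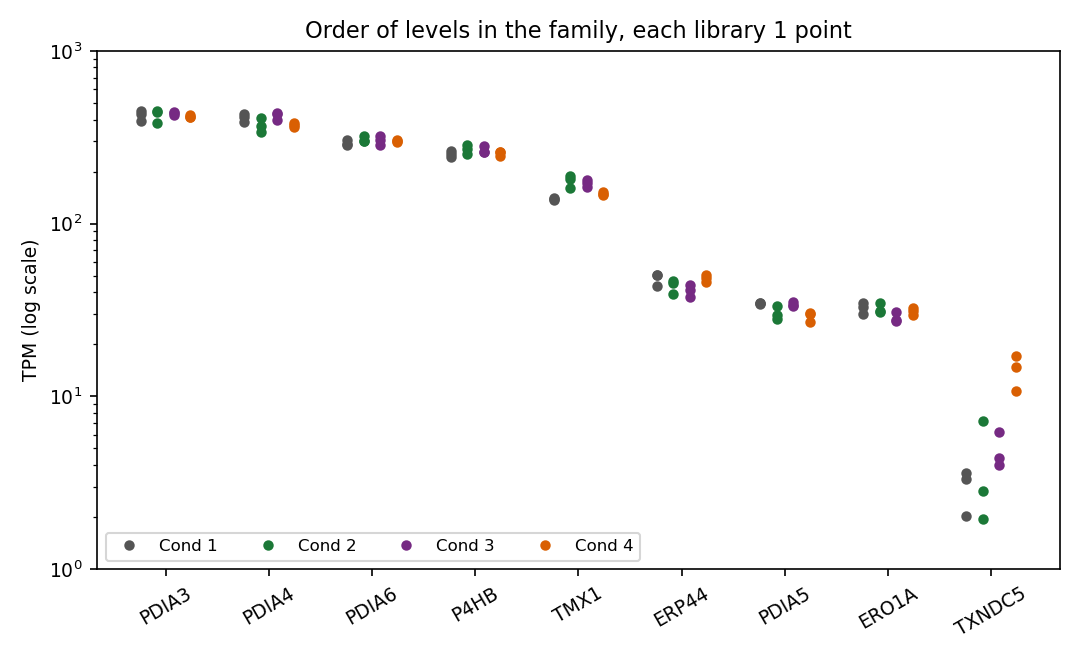
Deposited TPM, on a log axis, of the 9 members with reads in the 12 libraries, coloured by condition and ordered by their Cond 1 mean. PDIA3 lies between 383 and 448 TPM and TXNDC5 between 1.96 and 17.1 TPM.

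Of the 10 members, 9 passed the filter on low counts, and BLOC1S5-TXNDC5 did not. In Cond 2 against Cond 1, TMX1 rose and PDIA4, PDIA5 and ERP44 fell, 1 and 3 of 9 members, where 10.8% of all genes tested were called higher and 10.1% lower. In Cond 3 against Cond 1, TMX1 rose and ERP44 and ERO1A fell, where 19.5% of all genes were called higher and 18.8% lower. Between Cond 3 and Cond 2, PDIA4 and PDIA5 were higher in Cond 3 and 0 members were lower, where 19.0% of all genes were called higher and 19.2% lower. An unadjusted p under 0.05 was reached there by 2 of the 9 members and by 8106 of all 17747 genes. With limma on log2(TPM + 1), TMX1 alone was called in Cond 2 and in Cond 3 against Cond 1, and 0 members between Cond 3 and Cond 2. The first 2 of these comparisons share the Cond 1 libraries. In Cond 2 against Cond 1, TPM ranges did not overlap for TMX1 (higher) and PDIA5 (lower), beside 24.4% and 11.2% of all genes. In Cond 3 against Cond 1 this held for TMX1 (higher), beside 26.6% of all genes higher and 22.0% lower. TXNDC5 also lay higher there, but it was chosen on a difference from these same Cond 1 libraries. Between Cond 3 and Cond 2 the ranges of PDIA5 met at 33.5 TPM with Cond 3 just higher, beside 20.3% of all genes higher and 27.3% lower without overlap. The median log2 fold change of the 9 members, TXNDC5 included, was -0.081 in Cond 2 and 0.016 in Cond 3 against Cond 1. Over all genes it was 0.00018 and -0.0064. All called changes were small, between -0.28 and 0.27 on the log2 scale.

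**Figure D3:**
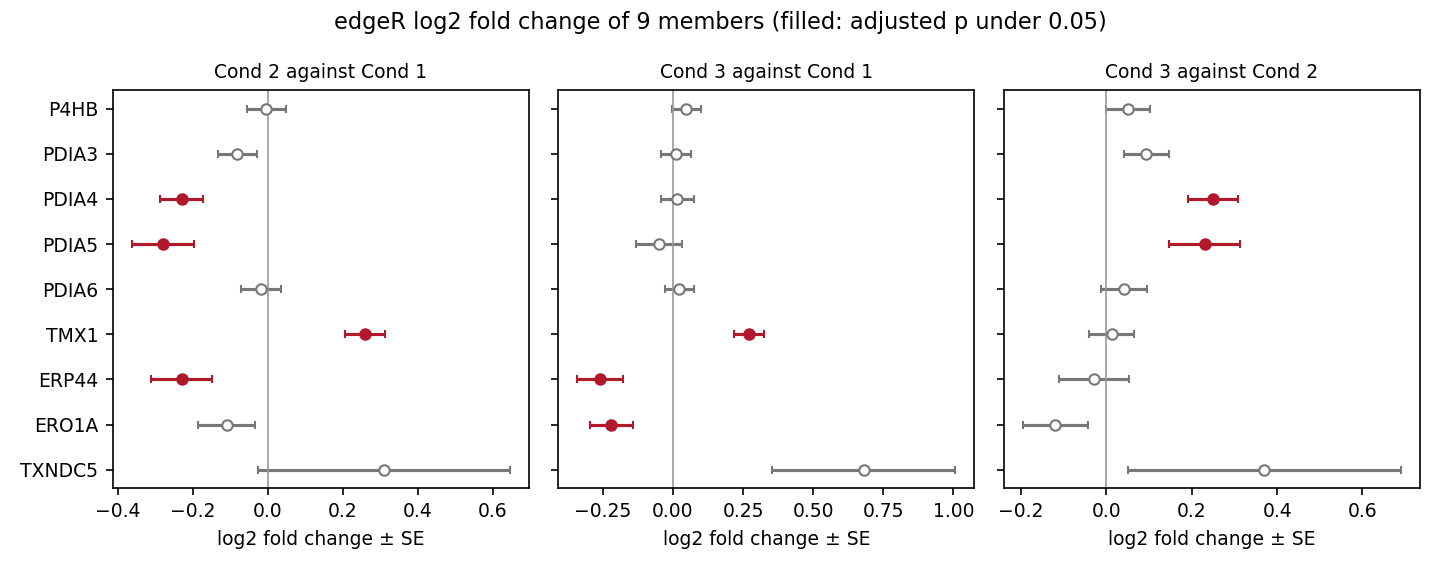
Fitted log2 fold change of 9 members with its SE in 3 comparisons, each with 3 libraries per condition. Filled points are past an adjusted p of 0.05 in edgeR. TMX1 is filled and above 0 in both comparisons with Cond 1, and TXNDC5 has the widest SE, 0.32 to 0.336.

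P4HB (chr17:81843159-81860856, minus strand), the founding PDI and also the beta subunit of collagen prolyl 4-hydroxylase, showed little movement. It stayed between 242 and 283 TPM over the 12 libraries, and its log2 fold changes against Cond 1 were -0.0036 (Cond 2), 0.048 (Cond 3) and -0.0027 (Cond 4). PDIA3 (chr15:43746394-43773279, plus strand), which acts on glycoproteins bound to calnexin and calreticulin, ranged from 383 to 448 TPM, with log2 fold changes of -0.081, 0.011 and -0.031. PDIA6 (chr2:10783391-10837977, minus strand), which works with the chaperone BiP, ranged from 284 to 321 TPM, with log2 fold changes of -0.018, 0.023 and 0.028. The adjusted p of these 3 genes was between 0.178 and 0.997 in the 4 comparisons in edgeR. Reads of PDIA3 may be shared with its pseudogene PDIA3P1, to which 635 to 938 reads were assigned beside 8180 to 11003 for PDIA3.

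PDIA4 (chr7:149003062-149028662, minus strand), a member with several catalytic domains also known as ERp72, was lower in Cond 2 than in both Cond 1 and Cond 3. It had 432, 412 and 388 TPM in Cond 1, 337, 369 and 407 in Cond 2, and 400, 432 and 437 in Cond 3. On this scale Cond 2 replicate 3 overlapped the other conditions, whereas the TMM-normalized counts used in the test did not overlap. Against Cond 1, the fitted difference of Cond 2 was -0.23 on the log2 scale (SE 0.0579, adjusted p = 0.0049 in edgeR), so that the fitted level fell by 15%. Cond 3 against Cond 2 gave 0.25 (SE 0.0579, adjusted p = 0.00146 in edgeR). With limma on log2(TPM + 1) these were -0.15 (adjusted p = 0.187) and 0.19 (adjusted p = 0.0698), which did not pass the threshold.

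PDIA5 (chr3:123067025-123225227, plus strand), a less abundant member of the family, was likewise lower in Cond 2 than in Cond 1 and Cond 3. Cond 1 held it within a narrow range, at 34.9, 34.6 and 34.4 TPM. Cond 2 had 27.9, 33.5 and 29.5 TPM, all below Cond 1. Cond 3 had 35.0, 33.8 and 33.5 TPM, overlapping Cond 1. Against Cond 1, the log2 value of Cond 2 was -0.28 (SE 0.0823, adjusted p = 0.0171 in edgeR). It lost the call without Cond 1 replicate 3 (-0.27, adjusted p = 0.0523), Cond 2 replicate 1 (-0.24, adjusted p = 0.0664) or Cond 2 replicate 3 (-0.25, adjusted p = 0.0627) in edgeR. The call was also lost with limma on log2(TPM + 1) (-0.19, adjusted p = 0.0827). Cond 3 against Cond 2 gave 0.23 (SE 0.0822, adjusted p = 0.0311 in edgeR), and 5 of 6 fits that left out 1 library lost it, with adjusted p from 0.0605 to 0.11. Those were the fits without Cond 2 replicate 1 or 3 or any replicate of Cond 3. This call was also lost without a filter on low counts and with limma on log2(TPM + 1).

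TMX1 (chr14:51240162-51257655, plus strand), a thioredoxin-related enzyme of the ER membrane, was the member with the firmest change. It had 141, 138 and 137 TPM in Cond 1, 161, 188 and 181 in Cond 2, and 171, 178 and 163 in Cond 3. Neither Cond 2 nor Cond 3 overlapped Cond 1, and they overlapped each other. The fitted log2 fold change was 0.26 (SE 0.0537, adjusted p = 0.000893 in edgeR) in Cond 2 and 0.27 (SE 0.0537, adjusted p = 0.0003 in edgeR) in Cond 3, or 1.20-fold and 1.21-fold. Both calls held in each of the 15 alternative settings run. Cond 3 against Cond 2 gave 0.012 (SE 0.0535, adjusted p = 0.89 in edgeR).

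ERP44 (chr9:99979185-100099052, minus strand), which retains ERO1A and unassembled secretory proteins, was lower in both media. It had 50.7, 50.3 and 43.4 TPM in Cond 1, 38.9, 46.8 and 45.1 in Cond 2, and 37.4, 44.3 and 41.3 in Cond 3. Replicate 3 of Cond 1 lay within the range of both other conditions on this scale. The log2 fold change was -0.23 (SE 0.0808, adjusted p = 0.0456 in edgeR) in Cond 2 and -0.26 (SE 0.0807, adjusted p = 0.014 in edgeR) in Cond 3. The call in Cond 2 was lost without Cond 1 replicate 1 or 2 or Cond 2 replicate 1 or 3, with adjusted p from 0.061 to 0.171 in edgeR, on the 6 libraries alone (adjusted p = 0.0626 in edgeR), and with limma on log2(TPM + 1) (-0.14, adjusted p = 0.297). The call in Cond 3 was lost without Cond 1 replicate 1 or 2 or Cond 3 replicate 1, with adjusted p from 0.0525 to 0.0979 in edgeR, and with limma on log2(TPM + 1) (-0.23, adjusted p = 0.0781).

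ERO1A (chr14:52639915-52695900, minus strand), the oxidase that recharges PDIs and a gene known to respond to hypoxia, was lower in Cond 3. It had 34.9, 29.9 and 33.0 TPM in Cond 1, 30.6, 31.2 and 34.7 in Cond 2, and 27.2, 27.6 and 30.7 in Cond 3. Cond 3 replicate 3 overlapped Cond 1. Against Cond 1, the log2 value of Cond 3 was -0.22 (SE 0.0759, adjusted p = 0.0223 in edgeR), and that of Cond 2 was -0.11 (SE 0.0758, adjusted p = 0.362 in edgeR). The call in Cond 3 was lost without Cond 1 replicate 1 or 3 or Cond 3 replicate 1 or 2, with adjusted p from 0.0748 to 0.111 in edgeR. It was also lost with limma on log2(TPM + 1).

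**Figure D4:**
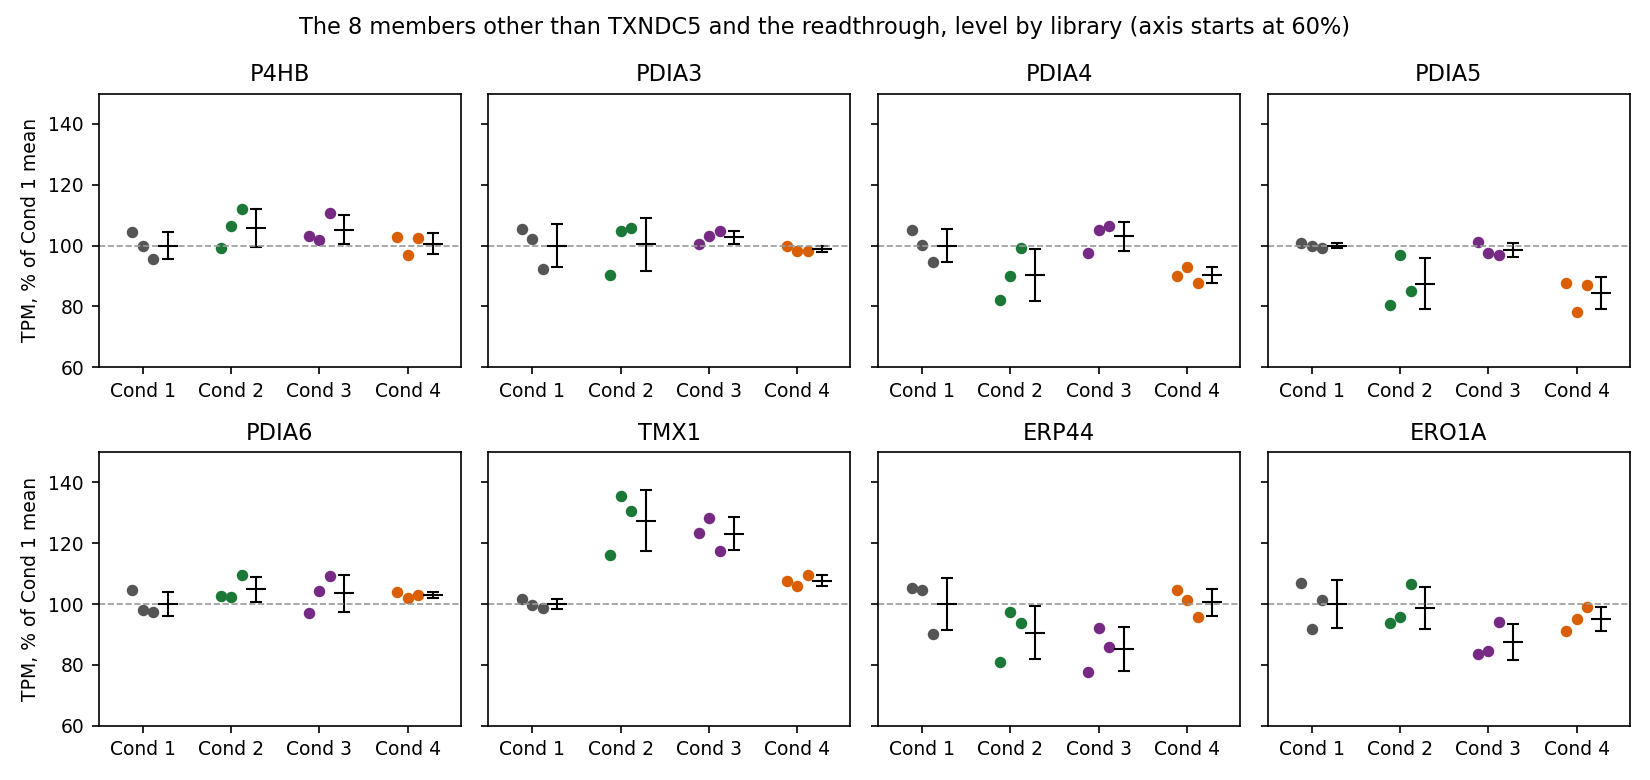
TPM of 8 members in each library as a percent of the gene's Cond 1 mean, on an axis that starts at 60%. The bar is the mean with its SD (n = 3). The TMX1 means are 127% in Cond 2 and 123% in Cond 3, and the PDIA5 means are 87.5% in Cond 2 and 84.3% in Cond 4.

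In Cond 4 against Cond 1, the 8 tested members other than TXNDC5 stayed short of the threshold. In edgeR 0 of them were called, beside 0.0225% of all genes called higher and 0.00563% lower, and DESeq2 and limma also called 0 of them. An unadjusted p under 0.05 was reached by PDIA4 and PDIA5 among these 8 members and by 1102 of all 17747 genes. PDIA5 had 30.4, 27.1 and 30.1 TPM in Cond 4, all below Cond 1, at a fitted log2 difference of -0.26 (SE 0.0826, adjusted p = 0.728 in edgeR). PDIA4 had 370, 382 and 360 TPM, also below all Cond 1 libraries, at a fitted log2 difference of -0.16 (SE 0.0579, adjusted p = 0.751 in edgeR). TMX1 had 149, 147 and 152 TPM, above all Cond 1 libraries, at a fitted log2 difference of 0.094 (adjusted p = 0.832 in edgeR). Of all genes tested, 6.75% had TPM in Cond 4 above and 5.12% below all libraries of Cond 1.

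The wider ER machinery was followed with 7 lists of 99 genes, of which 83 were tested. In Cond 2 against Cond 1, 7 rose and 20 fell, 8.43% and 24.1% of those tested, beside the 10.8% and 10.1% of all genes. With limma on log2(TPM + 1) the split was 11 higher and 8 lower, where 18% of all 14253 genes were called higher and 7.2% lower. In Cond 3 against Cond 1, 15 rose and 33 fell, 18.1% and 39.8%, beside 19.5% and 18.8% of all genes. Cond 3 against Cond 2 gave 19 higher and 18 lower, 22.9% and 21.7%, beside 19.0% and 19.2% of all genes. With limma on log2(TPM + 1) it gave 13 higher and 25 lower, where 15.5% of all genes were called higher and 25.3% lower. In Cond 4 against Cond 1, 0 genes of the lists were called by edgeR, DESeq2 or limma. There edgeR called 0.0225% of all genes higher and 0.00563% lower. The median log2 fold change of the lists was -0.048 in Cond 2 and -0.12 in Cond 3 against Cond 1.

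Among 11 further PDI family genes tested, 1 rose and 1 fell in Cond 2, and 2 rose and 4 fell in Cond 3. The shares were 9.09% each way in Cond 2, beside 10.8% and 10.1% of all genes, and 18.2% and 36.4% in Cond 3, beside 19.5% and 18.8%. Those shares of all genes are the background of each list that follows. DNAJC10, a reductase that works with BiP, rose in Cond 2 (log2 fold change 0.25, adjusted p = 0.00302 in edgeR). TMX2, a membrane-bound relative of TMX1, moved the other way from it in both media, at -0.23 (adjusted p = 0.0217) in Cond 2 and -0.27 (adjusted p = 0.00446) in Cond 3 in edgeR. TXNDC12, a small thioredoxin-like ER protein, fell in Cond 3 from 31 ± 2.55 to 18.9 ± 2.37 TPM (SD, n = 3), a log2 fold change of -0.74. PDIA2, known from the pancreas, rose in Cond 3 from 2.1 ± 1.5 to 5.85 ± 1.42 TPM (SD, n = 3), a log2 fold change of 1.43. TXNDC15 rose there by a log2 fold change of 0.29.

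In the list of thiol oxidation and reduction, 1 of 13 genes rose and 3 fell in Cond 2, and 1 rose and 5 fell in Cond 3. GPX7 and GPX8, ER peroxidases that use the hydrogen peroxide made by ERO1A, differed in Cond 2. GPX7 fell with a log2 fold change of -0.49 in Cond 2 and -0.52 in Cond 3. GPX8 rose by 0.21 in Cond 2 and fell in Cond 3 with a log2 fold change of -0.57. QSOX1, a sulfhydryl oxidase, fell in Cond 2 (-0.33), and its relative QSOX2 rose in Cond 3 (0.30).

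Of 9 genes of the calnexin and calreticulin cycle, in which PDIA3 works, 1 rose and 1 fell in Cond 2, and 3 rose and 3 fell in Cond 3. CALR, which encodes calreticulin, rose from 831 ± 41.5 TPM in Cond 1 to 1152 ± 65.9 in Cond 3 (SD, n = 3), a log2 fold change of 0.44, where that of PDIA3 was 0.011. MLEC also rose in Cond 3 (0.28), and UGGT2 (-0.48) and the glucosidase subunit PRKCSH (-0.43) fell. UGGT1, the folding sensor of glycoproteins, rose in Cond 2 (0.21) and Cond 3 (0.23), and GANAB, the catalytic glucosidase subunit, fell in both (-0.24 and -0.34).

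In the BiP and GRP94 system, 2 of 14 genes rose and 3 fell in Cond 2, and 3 rose and 5 fell in Cond 3. HSPA5, the gene of BiP, had 453 ± 29.8 TPM in Cond 1, 574 ± 27.7 in Cond 2 and 641 ± 41.7 in Cond 3 (SD, n = 3). Its log2 fold changes were 0.25 and 0.47. CNPY4 rose by 0.58 and 0.89. SIL1, a nucleotide exchange factor of BiP, fell with log2 fold changes of -0.50 and -0.75. PPIB, a prolyl isomerase of the ER, fell in Cond 2 (-0.30) and rose in Cond 3 (0.19), and DNAJC1, a cochaperone of BiP, fell in Cond 3 (-0.37).

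In the list of ER stress sensors and ER-associated degradation, 2 of 16 genes rose and 2 fell in Cond 2, and 3 rose and 7 fell in Cond 3. HERPUD1, a degradation factor induced by ER stress, rose in Cond 2 (0.37) and fell in Cond 3 (-0.77). Its difference between these conditions was -1.14 (adjusted p = 1.83e-07 in edgeR). EIF2AK3, which encodes the sensor PERK, and WFS1 rose in Cond 3 (0.57 and 0.45), while EDEM2 fell in Cond 2 (-0.31) and Cond 3 (-0.57). ATF6, another sensor, fell in Cond 2 (-0.37) and Cond 3 (-0.47), and CREB3L2 rose in both (0.25 and 0.27). XBP1, SDF2L1 and CRELD2 had only TPM values. With limma on log2(TPM + 1), XBP1, a transcription factor of the unfolded protein response, fell in Cond 3 from 205 ± 14.0 to 145 ± 6.89 TPM (SD, n = 3), a log2 difference of -0.49 (adjusted p = 0.00025). SDF2L1 rose there by 0.89 (adjusted p = 0.000325 in limma) and CRELD2 by 0.41 (adjusted p = 0.00199 in limma).

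The list of collagen-modifying genes includes the partners of P4HB, among them MTTP, which does not modify collagen. In Cond 2, 0 of 13 rose and 7 fell. In Cond 3, 3 rose, MTTP among them, and 6 fell. P4HA1, the catalytic subunit that pairs with P4HB, had 62.3 ± 9.49 TPM in Cond 1, 41.9 ± 3.77 in Cond 2 and 33.4 ± 0.531 in Cond 3 (SD, n = 3). Its log2 fold changes were -0.66 and -0.92, beside -0.0036 and 0.048 for P4HB. PLOD2 and P3H2, a lysyl and a prolyl hydroxylase, fell in Cond 2 (-0.91 and -0.92), and P3H2 rose in Cond 3 (0.38). SERPINH1, a collagen chaperone, fell in Cond 2 (-0.25) and Cond 3 (-0.66). MTTP, a lipid transfer protein that also pairs with P4HB, rose in Cond 3 (1.31) from a mean of 0.414 TPM.

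Of 7 tested genes in the list named KDEL receptors and retrieval, 0 rose and 3 fell in both Cond 2 and Cond 3. KDELR1 fell in Cond 2 (-0.22) and ERGIC2 in both (-0.28 and -0.28). ERGIC3 fell in Cond 3 (-0.30). The KDEL receptor genes KDELR1 and KDELR2 were not called there (0.04 and 0.08, adjusted p = 0.641 and 0.321 in edgeR). Of 18 hypoxia-inducible genes, set beside ERO1A, 3 rose and 4 fell in Cond 2, and 8 rose and 3 fell in Cond 3. These were 16.7% and 22.2% in Cond 2, beside 10.8% and 10.1% of all genes, and 44.4% and 16.7% in Cond 3, beside 19.5% and 18.8%. LDHA (0.98), PFKFB4 (1.19) and EGLN3 (0.67) rose and VEGFA (-1.54), P4HA1 (-0.92) and SLC2A1 (-0.54) fell in Cond 3. EGLN3 (0.59) and VEGFA (0.27) rose and P4HA1 (-0.66), SLC2A1 (-0.50) and LDHA (-0.33) fell in Cond 2.

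**Figure D5:**
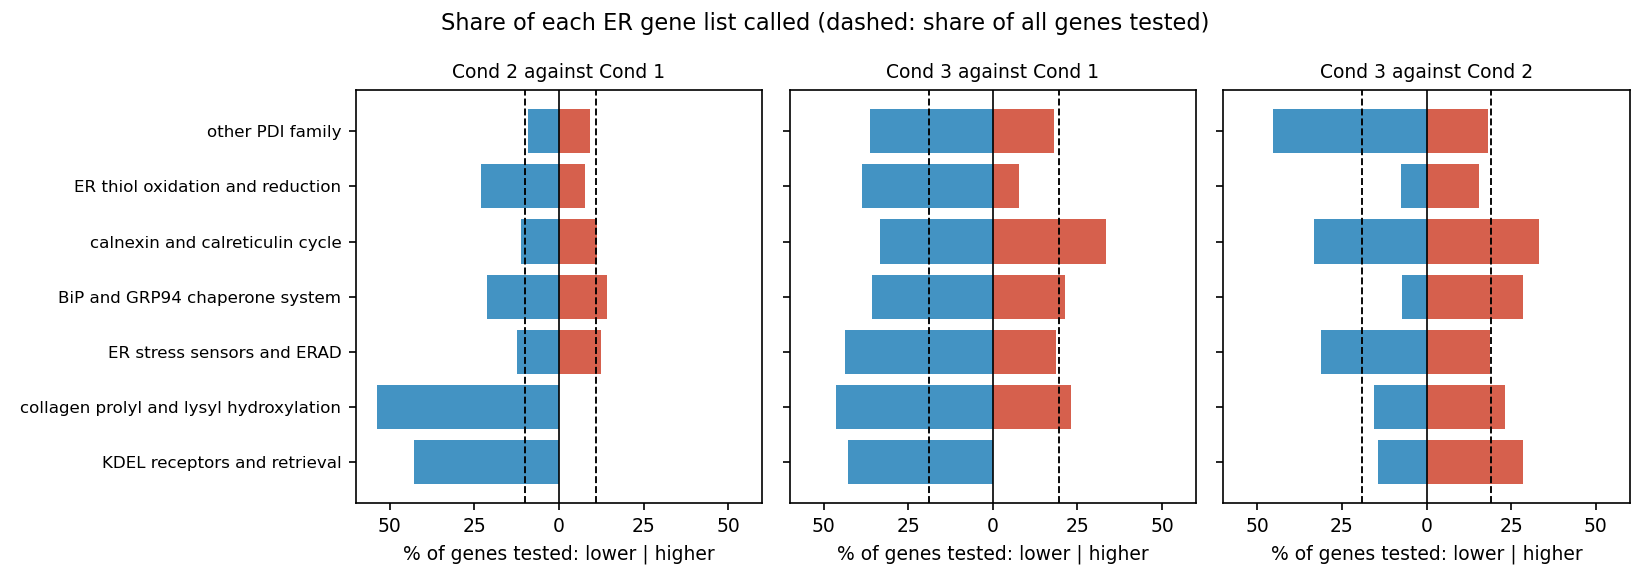
Share of the tested genes of each of 7 ER lists called lower (left of 0) and higher (right of 0) by edgeR in 3 comparisons, with dashed lines at the share of all genes tested. In Cond 2 against Cond 1, 53.8% of the collagen list and 42.9% of the KDEL list were called lower, and 0% of either higher.

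Marker levels moved with the media. All 12 pluripotent markers had at least 1 TPM in each condition, with sums of 9325 to 9596 TPM in Cond 1, 8061 to 9247 in Cond 2, 9224 to 9965 in Cond 3 and 9158 to 9676 in Cond 4. Of these markers 4 rose and 5 fell in Cond 2, and 5 rose and 5 fell in Cond 3, with NANOG (-1.09 and -2.16) and TDGF1 (-1.50 and -0.94) falling and SOX2 (0.44 and 0.45) rising in both. The 10 fibroblast and mesenchymal markers summed to 464 to 494 TPM in Cond 1, 310 to 381 in Cond 2, 664 to 697 in Cond 3 and 418 to 446 in Cond 4, and DCN was listed at 0 in Cond 1, Cond 2 and Cond 3. Of the 8 tested, 1 rose and 3 fell in Cond 2, and 5 rose and 1 fell in Cond 3. COL1A1 and COL1A2 made up most of this sum in Cond 3, at 436 and 110 TPM from 246 and 47 in Cond 1, while THY1 fell from 141 to 48.9 TPM. The 6 secretory and plasma cell markers summed to 58.4 to 62.5 TPM in Cond 1, 81.9 to 88.4 in Cond 2, 96.3 to 98.5 in Cond 3 and 57.1 to 67.7 in Cond 4. This sum was nearly all SDC1, at means of 59.1, 84.1 and 94.1 TPM in Cond 1 to Cond 3, with at most 2 of the 6 genes at a mean of 1 TPM and JCHAIN listed at 0 outside Cond 4. The labels give skin as the source, and of 6 keratinocyte markers 1 reached a mean of 1 TPM, with sums between 34.6 and 46.0 TPM over the 12 libraries. In bulk RNA, fewer cells of a type and less RNA per cell cannot be told apart. The part of these markers in the changes of the members in Cond 2 and Cond 3 was not tested. In Cond 4 against Cond 1, edgeR called 0 of the tested markers of any list. Of all genes tested it called 0.0225% higher and 0.00563% lower, so a count of 0 is uninformative for such short lists.

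Promoters from RefSeq (GRCh38.p14), 250 bases before to 50 after a start site, were searched on both strands for motifs of the unfolded protein response. The ER stress response element, written CCAAT, any 9 bases, then CCACG, was in 0.0769% of 35116 promoters. Among the members with an entry it was in 1 promoter of PDIA6, at bases -86 to -68 from the start site, and it includes a CCAAT box. That window is shown with the element in capitals.
PDIA6, chr2:10812833-10812891, minus strand: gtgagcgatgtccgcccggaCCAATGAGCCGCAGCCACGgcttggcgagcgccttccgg
The core TGACGTG, in 1.97% of promoters, was in an alternative promoter of TXNDC5 at bases -92 to -86. The CCAAT box alone, in 34.6% of promoters, was found for ERP44, P4HB, PDIA4, PDIA6, TMX1 and TXNDC5. PDIA3 had no entry. Of the 25 genes with the first element, 13 were tested, and 2 rose and 3 fell in Cond 2, 5 rose and 2 fell in Cond 3, and 0 were called in Cond 4. Over all genes, 10.8% rose and 10.1% fell in Cond 2, 19.5% and 18.8% in Cond 3, and 0.0225% and 0.00563% in Cond 4. HSPA5 rose in both media and CALR in Cond 3. Those that fell were EIF2A, HSP90B1 and TRIM5 in Cond 2, and SERP1 and TMEM120A in Cond 3. PDIA6 had a log2 fold change of -0.018 in Cond 2 and 0.023 in Cond 3.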

How the data were processed

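RNA-Seq was measured in 12 libraries, 3 per condition. Poly(A) RNA was made into stranded libraries by the authors, who processed the reads with bcl2fastq 2.20.0.422, cutadapt 4.1 and fastp 0.20.1, aligned them to GRCh38 with HISAT2 2.1.0 and counted them with featureCounts. How reads on several genes or sites were counted, and whether by strand, is not given in the sources used here. The authors deposited whole read counts per gene, not normalized. Deposited TPM is the count per length scaled to 1 total, and recomputation gave a largest relative deviation of 1.79e-14. Of 58580 lines of counts, 5 held no whole gene row and were left out, and 2042 genes had TPM values alone. Total counts per library were 16441148 to 21871503.

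Counts were normalized by TMM, filtered with filterByExpr and entered into edgeR 4.0.16 (R 4.3.3) for its quasi-likelihood test, fitted once over 12 libraries. Benjamini-Hochberg adjustment was over 17747 genes, and an adjusted p under 0.05 was a call. On simulated counts for Cond 2 against Cond 1, 188 of 200 genes with levels changed 2-fold were recovered with 10 false calls among 17747 genes. The changed genes were drawn only from those above a set mean count in Cond 1, so recovery among genes with fewer reads was not tested. Recovery of smaller changes, such as those called for the members in that comparison, was not tested. Coordinates came from GENCODE release 44.

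The members and lists were chosen with earlier results of these data known. Named genes were the members, their sum and BLOC1S5, up to 2 called genes with the largest rise and 2 with the largest fall per list and comparison, and the 5 genes nearest to TXNDC5 in profile. The text gives only some of these. BMP6, EEF1E1, PDIA3P1, XBP1, SDF2L1, CRELD2, the genes with the ER stress response element that fell, and the genes at 0 were named after their values were seen. Alternatives were DESeq2 1.42.0, upper-quartile scaling, no filter, limma 3.58.1 on log2(TPM + 1) and log2(TPM + 0.1) for genes with at least 1 TPM in every library, the 6 libraries compared alone, a replicate block, the sum of both rows, each replicate left out, and robust dispersions, added after seeing the data.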

Additional observations from a re-analysis of the deposited data

How the results depend on the processing

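Of 540 refitted log2 fold changes of single members, 460 kept their direction and side of the threshold, 38 lost the call, 3 gained it and 39 changed sign. These include 15 of TXNDC5 in Cond 4 against Cond 1, the difference it was chosen on. They make up 12 of the 460 and 3 of the 38, and are no test of that difference. The members called in Cond 2 against Cond 1 were 4, and 1 with limma on either TPM scale (TMX1). In Cond 3 against Cond 1 they were 3, and 1 with limma on either scale (TMX1). In Cond 3 against Cond 2 they were 2, then 1 without a filter on low counts (PDIA4) and 0 with limma on either scale. Leaving out 1 library gave 2 to 4, 1 to 3 and 1 to 2 calls. The lowest counts came without Cond 2 replicate 1 or 3 in the first comparison, Cond 1 or Cond 3 replicate 1 in the second, and Cond 2 replicate 1 or any Cond 3 replicate in the third. On TPM the median log2 difference of all genes was 0.085 in Cond 2 against Cond 1 with a pseudocount of 1, beside 0.000 in the TMM fit. Total counts of listed genes stayed within 1.5 times of those reported, but their split in Cond 2 against Cond 1, 7 higher and 20 lower, was 11 and 8 with limma on either scale and 4 and 20 without Cond 2 replicate 3.

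The labels do not say whether a replicate number marks a shared run. Deviations of same-numbered libraries correlated between -0.013 and 0.038, beside -0.069 to 0.061 for the other pairs, so no shared deviation was seen. With the replicate block the calls numbered 4, 3 and 2 in the first 3 comparisons and 0 of the 8 members other than TXNDC5 in Cond 4 against Cond 1, each as without it.

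TXNDC5, chosen on Cond 4 against Cond 1, had a log2 fold change between 1.94 and 2.40 there over 15 alternatives. In Cond 2 against Cond 1 it ranged from -0.41 to 0.66 when 1 library was left out.

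The other sign changes were of uncalled values near 0. In Cond 2 against Cond 1, limma gave 0.082 on both scales for P4HB, 0.0047 for PDIA3 and 0.068 for PDIA6, and leaving out 1 library gave -0.038 to 0.022 for P4HB and -0.044 to 0.0089 for PDIA6. In Cond 3 against Cond 1, leaving out 1 library gave -0.036 to 0.044 for PDIA3, -0.015 to 0.058 for PDIA4 and -0.021 to 0.072 for PDIA6. In Cond 3 against Cond 2, limma gave -0.0075 for P4HB, -0.018 for PDIA6 and -0.045 or -0.046 for TMX1, upper-quartile scaling gave 0.0054 for ERP44, and leaving out 1 library gave -0.0031 to 0.09 for PDIA6, -0.033 to 0.05 for TMX1 and -0.088 to 0.038 for ERP44. In Cond 4 against Cond 1, limma gave 0.01 for P4HB and 0.0096 or 0.0098 for ERP44, and leaving out 1 library gave -0.026 to 0.023 for P4HB, -0.078 to 0.0028 for PDIA3 and -0.066 to 0.03 for ERP44. The cause of these shifts was not tested. Counting error of TXNDC5 was 8.08% to 14.3% of its count in Cond 2 and 7.72% to 10.2% in Cond 3, beside coefficients of variation between libraries of 70.5% and 24.5%.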
